A study of Mus musculus with 2 samples.

Results

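Mature chemokine-low neutrophils are the lung neutrophils that remain once cells rich in secondary granule transcripts and cells rich in the chemokine transcripts Ccl3 and Ccl4 are set aside. They were 4781 of the 20390 cells kept in the series. Of these, 2209 came from the LPS_MCZ library and 2572 from the LPS library. The LPS_MCZ library was made from male ICR mice, an outbred stock, aged 6 to 8 weeks, given lipopolysaccharide (LPS, a bacterial cell wall component that inflames the lung) and miconazole (MCZ, an azole antifungal) by injection into the peritoneum. The LPS library was made from mice of the same stock, sex and age given LPS without miconazole. For miconazole the sample carries a dose of 0.2 mg/kg while the treatment protocol names 1.0 mg/kg. The LPS dose, route and timing and the number of mice are not stated. The left lower lobes of all mice of a group were digested together and pooled into 1 droplet library, so each group has 1 sample, no test between groups is possible, and treatment and library cannot be told apart. No library of mice without LPS was analysed here.

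Neutrophils are short-lived phagocytes that leave the bone marrow with their granules already made. As they mature they lose the transcripts of granule proteins such as lactoferrin, and circulating mature cells carry those of S100a8 and S100a9, of the chemokine receptor Cxcr2 and of the growth factor receptor Csf3r. LPS drives them into the lung and switches on cytokine genes through NF-kB and antiviral genes through type I interferon. Like most cells they make cholesterol through the mevalonate pathway, whose genes are switched on by the factor SREBP2 when sterols run short. Azoles block the fungal form of Cyp51, the lanosterol demethylase of sterol synthesis, and mammalian cells have an enzyme of the same name.

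Members were chosen by measured values. A gated neutrophil had at least 3% of its UMIs (unique transcript tags) from S100a8 and S100a9, at least 2 UMIs of Csf3r, 0 UMIs of Cd3e, Cd79a and Cdh5, and at most 2 UMIs of Ly6c2, F13a1 and Mrc1 together. Of the 7032 gated neutrophils, 2987 in LPS_MCZ and 4045 in LPS, the 15% with the highest share of UMIs from Camp, Ltf and Ngp were dropped (425 LPS_MCZ and 630 LPS cells, called granule-high), and then the 20% of the rest with the highest share from Ccl3 and Ccl4 (353 LPS_MCZ and 843 LPS cells, called chemokine-high). The granule limit fell at 0.319% of UMIs, between cells at 0.3184% inside and 0.3186% outside. The chemokine limit fell at 0.802%, between 0.8017% inside and 0.8023% outside. The limit on Ly6c2, F13a1 and Mrc1 removed the most cells, 1423 of 5080 LPS_MCZ cells and 1880 of 6977 LPS cells that met the S100 limit.

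The label was checked against marker genes, as a description, since S100a8, S100a9 and Csf3r chose the cells. Cxcr2, which the rule did not use, stood at 871 CPM (UMIs per 1e6 of the summed UMIs of the members) in LPS_MCZ and 1075 CPM in LPS, against 22.6 and 33.5 CPM in cells gated as T cells from the same libraries. Retnlg, a resistin-like gene of mature neutrophils, stood at 3542 CPM in LPS_MCZ and 5793 CPM in LPS, against 69.3 and 93.8 CPM in T cells. The primary granule genes Mpo and Elane, markers of bone marrow precursors, were at 1.61 and 0.146 CPM in LPS_MCZ and at 0.133 CPM each in LPS. These genes set the members apart from T cells and early precursors but do not grade maturity among neutrophils. Mpo and Elane were at 0 in the granule-high cells of both libraries, and Retnlg was higher in granule-high cells, at 8313 CPM in LPS_MCZ and 8528 CPM in LPS, than in members. Mature thus stands for the lower granule share the rule set, and chemokine-low holds only relative to the cells set aside. Ccl3 was still at 1011 CPM in LPS_MCZ members and 1072 CPM in LPS members, and Cxcl2, a neutrophil-attracting chemokine outside the rule, at 14049 and 14577 CPM. Only 242 of 2209 LPS_MCZ members and 248 of 2572 LPS members had 0 UMIs of Ccl3 and Ccl4.

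Members made up 26.6% [25.6, 27.5] of kept LPS_MCZ cells and 21.3% [20.6, 22.0] of kept LPS cells (95% Clopper-Pearson intervals, which cover counting error only). Among gated neutrophils they were 74.0% [72.3, 75.5] in LPS_MCZ and 63.6% [62.1, 65.1] in LPS. Most of that gap lay in the chemokine step, where 13.8% [12.5, 15.2] of LPS_MCZ and 24.7% [23.2, 26.2] of LPS neutrophils left after the granule step were dropped as chemokine-high. The limits were set with both libraries pooled, and with limits set inside each library the shares of kept cells were 24.4% in LPS_MCZ and 22.8% in LPS. Shares within 1 library sum to a whole, so they are no measure of cell numbers in the lung.

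Members were sequenced to a median of 5642 UMIs and 1419 genes in LPS_MCZ and 5414.5 UMIs and 1278 genes in LPS, 13686618 and 15049406 UMIs in all. The 2 libraries shared 243 cell barcodes, of which 9 were LPS_MCZ members and 3 LPS members. Free RNA (RNA of other cells taken up in the droplets) and cells caught together were present. By the median over 18 genes of other cell types, members carried 20.7% of the library's mean level of such genes in LPS_MCZ and 9.45% in LPS. Single genes among the 18 ran from 0.694% to 105% in LPS_MCZ and from 1.89% to 86.8% in LPS. A gene is called open to free RNA below where the median share of the library's level makes up over 25% of its level in the members of either library. That was so for 2634 of 5354 genes. By the sum-based estimate given with the processing below, all 5354 would be open, so each statement that a gene was not open rests on the median. The defining T cell gene Cd3e, the B cell gene Cd79a and the endothelial gene Cdh5 were at 0 by the rule. The T cell gene Trac was at 0.658 CPM in LPS_MCZ and 0.399 CPM in LPS, the alveolar macrophage genes Marco and Siglecf at 6.58 and 1.39 CPM in LPS_MCZ and 6.31 and 1.40 CPM in LPS, and the monocyte gene Ccr2 at 3.00 and 2.39 CPM. Other markers stood higher in members. The T cell gene Cd3d was at 53.3 CPM in LPS_MCZ and 45.8 CPM in LPS. The natural killer cell gene Gzma was at 44.9 and 52.3 CPM, and the monocyte gene Ly6c2, limited by the rule, at 67.1 and 74.4 CPM. Haemoglobin RNA was heavier in LPS, with Hbb-bs at 2087 CPM in LPS_MCZ and 3078 CPM in LPS. The club cell gene Scgb1a1 was at 1760.0 CPM in LPS_MCZ and 86.8 CPM in LPS, and 2 LPS_MCZ members held 84.0% of its UMIs. Without the 2 richest members of each library it was still at 282 CPM in LPS_MCZ and 76.2 CPM in LPS. Its log2 ratio, LPS_MCZ over LPS, ran from 0.47 over all cells outside the neutrophil gate to 2.19 in granule-high neutrophils. The part of free RNA and of cells caught together in the results below was tested only by subtraction and by leaving out those 2 LPS_MCZ members.

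With 1 library a group, genes are described by size. Ratios are log2 of LPS_MCZ over LPS on the scale of summed CPM plus 1, and a gene is called higher or lower at 0.5 or more on either side. Brackets give the 95% counting interval of the ratio without the added 1. Of 5354 genes with at least 200 UMIs in members, 928 (17.3%) were higher in LPS_MCZ and 350 (6.54%) were lower. The median ratio of all these genes was 0.15, and with that shift taken out by scaling to the median of ratios 560 were higher and 578 lower, so the surplus of higher genes depends on the scaling. With S100a8 and S100a9 left out of the totals 779 were higher and 429 lower, and with free RNA subtracted 847 were higher and 970 lower. S100a8 and S100a9 took a median of 12.7% of a member's UMIs in LPS_MCZ and 16.4% in LPS.

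**Figure D1:**
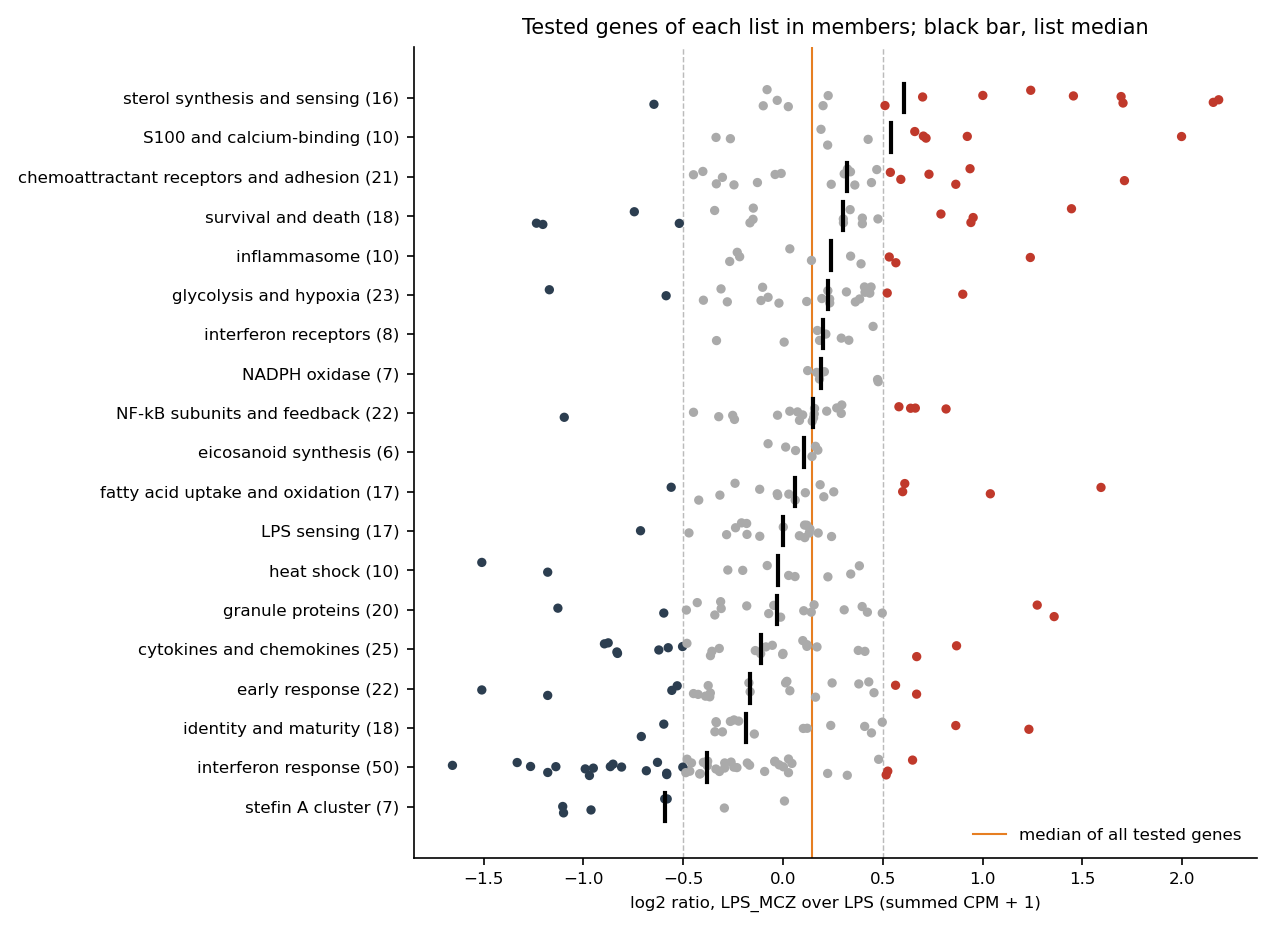
Log2 ratio, LPS_MCZ over LPS, of each tested gene (point) of the 19 gene lists in members, with the list median (black bar), the median of all 5354 tested genes (orange line, 0.15) and the size of 0.5 for a call (dashed lines; red higher, dark blue lower, grey neither). The sterol list lies farthest to the right with a median of 0.61 and the stefin A list farthest to the left with -0.59.

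Genes of cholesterol synthesis and its control stood higher in LPS_MCZ members than the other lists. The list was divided by role after the values had been seen, into 20 genes of synthesis and SREBP2 targets and 11 of sensing, storage and export. Of the 20, 10 had enough UMIs to be tested, 9 of them were higher and 0 lower, against 17.3% and 6.54% of all genes, with a median of 1.35. Counting also the genes with fewer UMIs, 19 of 20 had a higher level in LPS_MCZ. Of the other 11 genes 6 were tested, 0 were higher and 1 was lower, with a median of 0.00.

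Srebf2, which encodes SREBP2 itself, was at 71.5 CPM in LPS_MCZ and 21.3 CPM in LPS, 1.70 [1.57, 1.94]. Of the mevalonate pathway, Hmgcs1, which condenses acetoacetyl-CoA with acetyl-CoA, was at 57.5 CPM in LPS_MCZ and 20.3 CPM in LPS, 1.46 [1.31, 1.70]. Msmo1, which acts late in the pathway, was likewise more than doubled in LPS_MCZ.

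Idi1, the isomerase of isopentenyl units, was at 18.3 CPM in LPS_MCZ and 3.32 CPM in LPS, 2.16 [2.02, 2.93]. Fdps and Fdft1, which build farnesyl units and squalene from them, had ratios of 1.00 [0.73, 1.58] and 1.24 [1.00, 1.88]. The decarboxylase Mvd, at 14.4 CPM in LPS_MCZ and 15.5 CPM in LPS, was the exception, with a ratio of -0.10 [-0.39, 0.17].

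Past squalene, Msmo1, the sterol methyl oxidase that acts after Cyp51, was at 53.6 CPM in LPS_MCZ and 15.9 CPM in LPS, 1.69 [1.54, 1.97]. Cyp51 itself was too sparse to be tested, with 141 UMIs in LPS_MCZ members and 35 UMIs in LPS members, a ratio of 1.76 [1.60, 2.72], and it was open to free RNA. Sqle, the squalene oxidase, had 58 UMIs in LPS_MCZ and 9 UMIs in LPS. Sc5d, a desaturase of the late pathway, was at 13.6 CPM in LPS_MCZ and 9.24 CPM in LPS, 0.51 [0.23, 0.88], which falls under the size for a call once the shift of 0.15 is taken off. Lss, with 4 UMIs in LPS_MCZ and 1 UMI in LPS, and Dhcr7, with 5 and 3 UMIs, were too sparse to compare.

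The sensing, storage and export genes did not share the pattern. Abca1, the pump that exports cholesterol and a target of LXR, was lower, at 76.1 CPM in LPS_MCZ and 119.6 CPM in LPS, -0.65 [-0.76, -0.54]. Abcg1, also an exporter, had a ratio of -0.08 [-0.33, 0.17], Soat1, which esterifies cholesterol, -0.03 [-0.16, 0.10], and Mylip, a ubiquitin ligase induced by LXR, 0.23 [0.03, 0.43]. Npc2, a lysosomal cholesterol carrier and the most abundant gene of the list, was at 119.5 CPM in LPS_MCZ and 103.8 CPM in LPS, 0.20 [0.10, 0.30]. Idi1, Fdps, Mvd and Npc2 were open to free RNA, while Srebf2, Msmo1, Hmgcs1, Fdft1 and Abca1 were not. With free RNA subtracted Idi1 had a ratio of 2.82, Srebf2 1.89 and Msmo1 1.83.

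**Figure D2:**
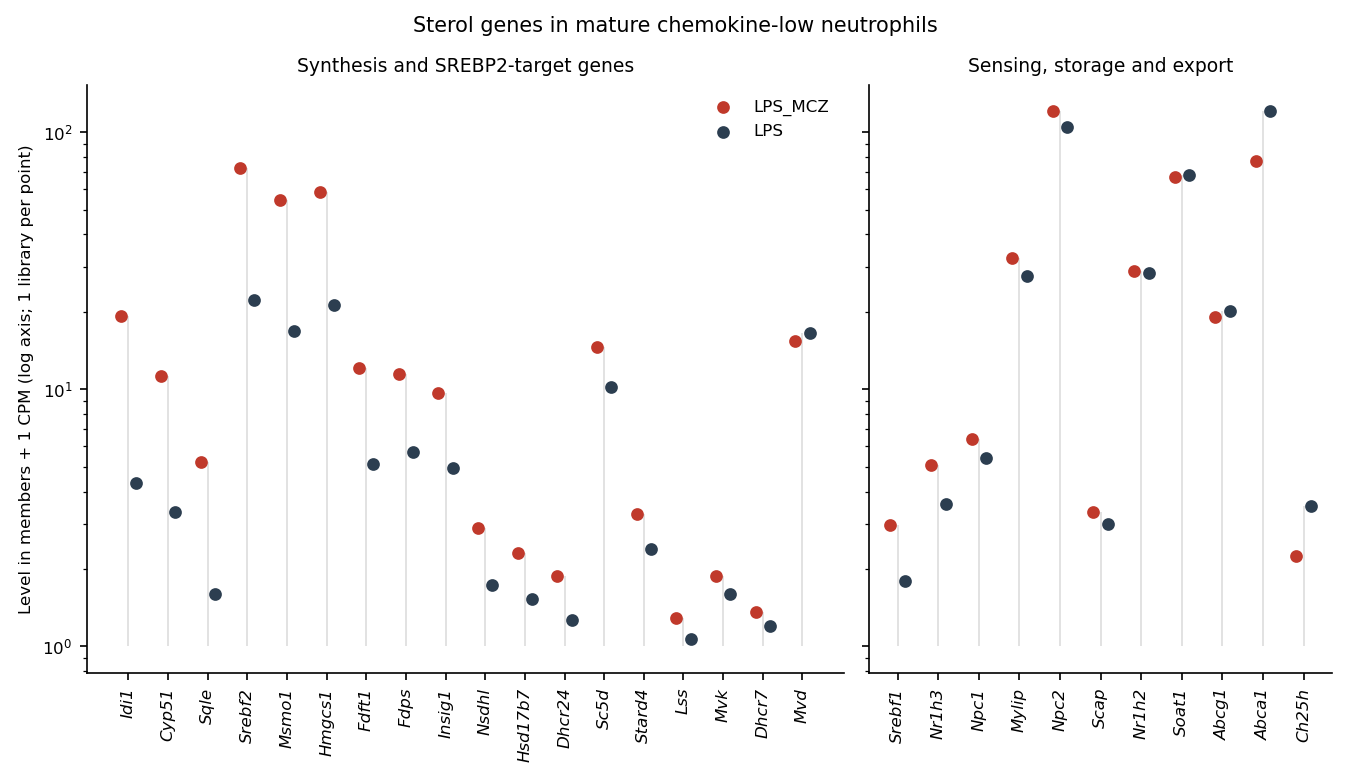
Level of 18 synthesis and SREBP2-target genes and 11 sensing, storage and export genes in members, as CPM plus 1 on a log axis, with 1 point for the LPS_MCZ library (red, left) and 1 for the LPS library (dark blue, right). The LPS_MCZ point is the higher in 17 of 18 synthesis and SREBP2-target genes plotted, led by Idi1 at 18.3 against 3.32 CPM, and in 7 of 11 sensing, storage and export genes.

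The summed level of the 20 synthesis and SREBP2-target genes was 397 CPM in LPS_MCZ members and 154 CPM in LPS members, a ratio of 1.37 [1.30, 1.44]. The same sum had a ratio of 1.19 [1.10, 1.28] in granule-high and 0.89 [0.71, 1.07] in chemokine-high neutrophils. Outside the neutrophil gate it was 0.37 [0.33, 0.41] in cells gated as monocytes, 0.45 [0.26, 0.64] in endothelial cells, -0.04 [-0.17, 0.09] in T cells, -0.12 [-0.17, -0.06] in alveolar macrophages and -0.28 [-0.45, -0.11] in B cells. These intervals cover counting error only and leave out variation between mice and libraries. The members' 154 CPM in LPS was well below the 823 CPM of monocytes and 681 CPM of alveolar macrophages in the same library.

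Members of LPS_MCZ had sterol UMIs more often, and a small number of them had many. With each member thinned to 2000 UMIs (14 LPS_MCZ and 21 LPS members were shallower and left out), 36.6% [34.6, 38.7] of LPS_MCZ members and 21.9% [20.3, 23.5] of LPS members had at least 1 UMI of the 20 genes, and 2.82% [2.17, 3.61] and 0.157% [0.0427, 0.401] had at least 5. The mean was 0.726 ± 1.39 UMIs per LPS_MCZ member and 0.282 ± 0.618 per LPS member (SD over cells, which are not replicates). The 62 LPS_MCZ members with at least 5 held 404 of 1593 sterol UMIs (25.4%), and the 4 such LPS members held 22 of 720 (3.06%). No class free of these genes was at hand to give a background share. In T cells thinned alike, of median depth 7729.5 UMIs in LPS_MCZ and 6500.0 in LPS, the shares with at least 1 UMI were 42.4% and 43.3%. The gap was not particular to members among neutrophils. In granule-high cells 60.1% in LPS_MCZ and 37.8% in LPS had at least 1 UMI, and 5.70% and 0.477% had at least 5. In chemokine-high cells 32.0% and 18.5% had at least 1, and 0% and 0.119% had at least 5.

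The promoters of the genes were read for the sterol response element, to which SREBP2 binds. The letters searched were TCACNCCAC on both strands, over 250 bases before and 50 bases after each RefSeq gene start on GRCm38.p6, the same assembly as mm10. They occurred in 1.44% of 27025 genes. Of the 20 genes 13 were in the promoter table and 1, Hmgcs1, held the letters. Msmo1, Idi1 and Srebf2 did not hold them in this window. The stretch around the match in Hmgcs1, at chr13:119690174-119690262 on the plus strand with the match starting 137 bases before the gene start, is shown because it carries these letters beside the start of a gene with a ratio of 1.46; capitals mark the match.
Hmgcs1: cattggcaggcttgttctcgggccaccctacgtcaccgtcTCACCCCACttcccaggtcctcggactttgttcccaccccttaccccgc

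Interferon-response genes were mostly lower in LPS_MCZ members. Of 50 tested genes 16 were lower and 3 higher, against 6.54% and 17.3% of all genes, 40 had a ratio below 0, and the median was -0.38, or 0.53 below the median of all genes. The 3 higher genes were Igtp, Irf1 and Gbp5.

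Ifit1, whose product binds viral RNA, had 5740 UMIs or 419 CPM in LPS_MCZ and 12555 UMIs or 834 CPM in LPS, -0.99 [-1.04, -0.95]. Ifit2 was at 60.4 CPM in LPS_MCZ and 146 CPM in LPS, -1.26 [-1.40, -1.16], and Ifit3 at 261 and 513 CPM, -0.97 [-1.03, -0.91]. The near-identical copies of Ifit1 and Ifit3 in the mouse genome may share reads, and Ifit3b had a smaller ratio of -0.29 [-0.37, -0.22]. Oasl1, an oligoadenylate synthetase-like inhibitor of interferon production, was at 163 CPM in LPS_MCZ and 316 CPM in LPS, -0.95 [-1.03, -0.88], and Oas1g, which was sparse, had a ratio of -1.18 [-1.67, -0.94]. With the sparse Ifit1bl1 (-1.14) they were the 6 lowest ratios of the list among genes not open to free RNA. The other oligoadenylate synthetase genes of the list were not called, with Oas2 at -0.09, Oas3 at -0.18, Oas1a at -0.34 and Oasl2 at -0.41.

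Other antiviral genes had smaller ratios. Usp18, which removes Isg15 from proteins and dampens interferon signalling, had a ratio of -0.86 [-1.01, -0.75], the RNA sensor Ifih1, which was open to free RNA, -0.81 [-0.91, -0.72] and the exonuclease Isg20 -0.68 [-0.72, -0.65]. Rsad2 (viperin) was at 982 CPM in LPS_MCZ and 1368 CPM in LPS, -0.48 [-0.51, -0.45], and Isg15, a ubiquitin-like modifier, at 3203 and 4223 CPM, -0.40 [-0.42, -0.38]. Ifitm2, which blocks viral entry and was the most abundant gene of the list, was at 4527 CPM in LPS_MCZ and 5370 CPM in LPS, -0.25 [-0.26, -0.23]. Ifi209 and Ifi204 of the DNA sensor family had the lowest ratios, -1.66 [-2.35, -1.45] and -1.33 [-1.76, -1.12], but at under 25 CPM in both libraries and open to free RNA.

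In the other direction, the immunity GTPase gene Igtp was at 114 CPM in LPS_MCZ and 72.6 CPM in LPS, 0.65 [0.54, 0.77], the factor Irf1 at 576 and 400.2 CPM, 0.53 [0.48, 0.57], and the guanylate-binding protein gene Gbp5 at 475 and 332 CPM, 0.52 [0.47, 0.57]. Stat2 and Irf9, which carry the type I response to the nucleus, were at 0.05 and 0.03. Relatives of Igtp and Gbp5 on the list were not called, with Irgm1 at 0.32, Ifi47 at -0.17, Gbp2 at 0.00, Gbp7 at -0.02 and Gbp3 at -0.29. Of the 8 interferon receptor and feedback genes 0 were called either way (median 0.20). Ifnar1 had a ratio of 0.45 and Ifnar2 of 0.33, and the feedback inhibitors Socs1 and Socs3 of -0.33 and 0.01. On the scale of the median of ratios every one of these ratios is lower by the shift of about 0.15. That takes Irf1 and Gbp5 under 0.5 and brings Igtp to the edge of it, so none of the 3 is clearly higher on that scale.

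**Figure D3:**
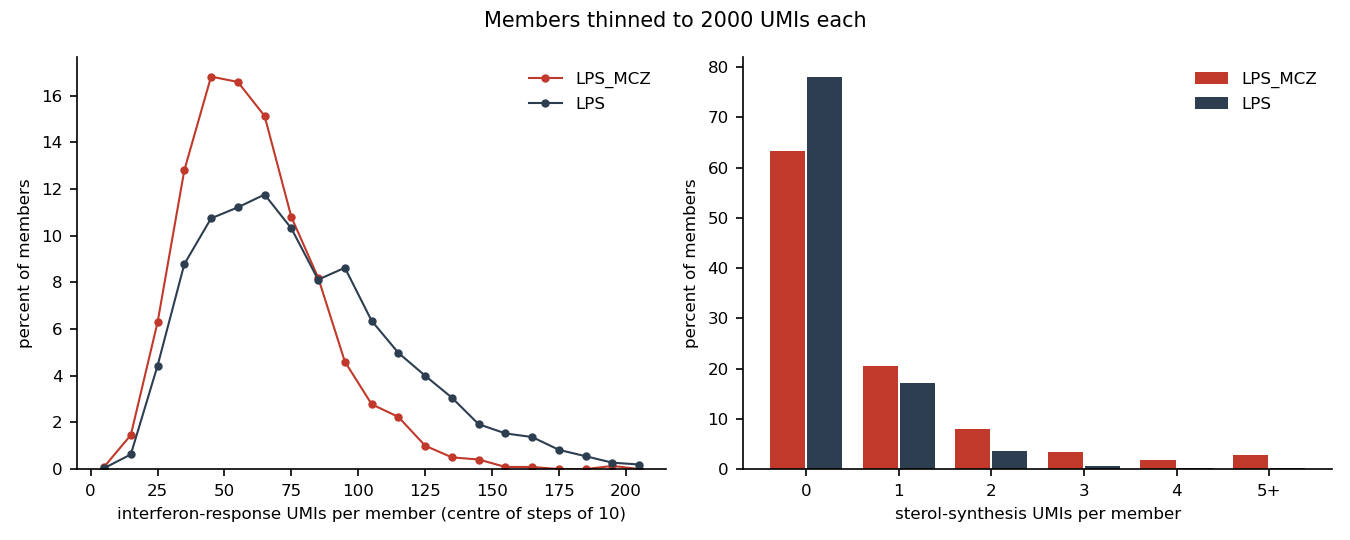
Members thinned to 2000 UMIs each, LPS_MCZ in red and LPS in dark blue. Left, percent of members by the number of interferon-response UMIs (points at the centre of steps of 10; 13 LPS members and 0 LPS_MCZ members have over 200 and are mostly off the axis), where the LPS curve reaches farther right. Right, percent of members by the number of sterol-synthesis UMIs, where 63.4% of LPS_MCZ and 78.1% of LPS members have 0.

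The interferon level was lower in LPS_MCZ across the range of members. At 2000 UMIs each, the median member had 57 interferon-response UMIs in LPS_MCZ and 72 in LPS. The 10th percentile of members was 31.4 UMIs in LPS_MCZ and 36 in LPS, and the 90th percentile 94 in LPS_MCZ and 130 in LPS, so the gap was wider among the cells with the highest interferon level. At least 10 UMIs were found in 2193 of 2195 LPS_MCZ and 2550 of 2551 LPS members. Interferon RNA was thus present in nearly every member of both libraries, and the 2 distributions overlapped widely.

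The lower level was not particular to these cells. The summed level of the 50 genes had a ratio of -0.33 [-0.34, -0.33] in members, -0.33 [-0.34, -0.32] in granule-high and -0.37 [-0.39, -0.36] in chemokine-high neutrophils. It was -0.12 in monocytes, -0.37 in T cells, -0.38 in endothelial cells, -0.61 in B cells and -0.64 in alveolar macrophages. Every class named here lay below 0, with the members inside the range of the other classes.

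**Figure D4:**
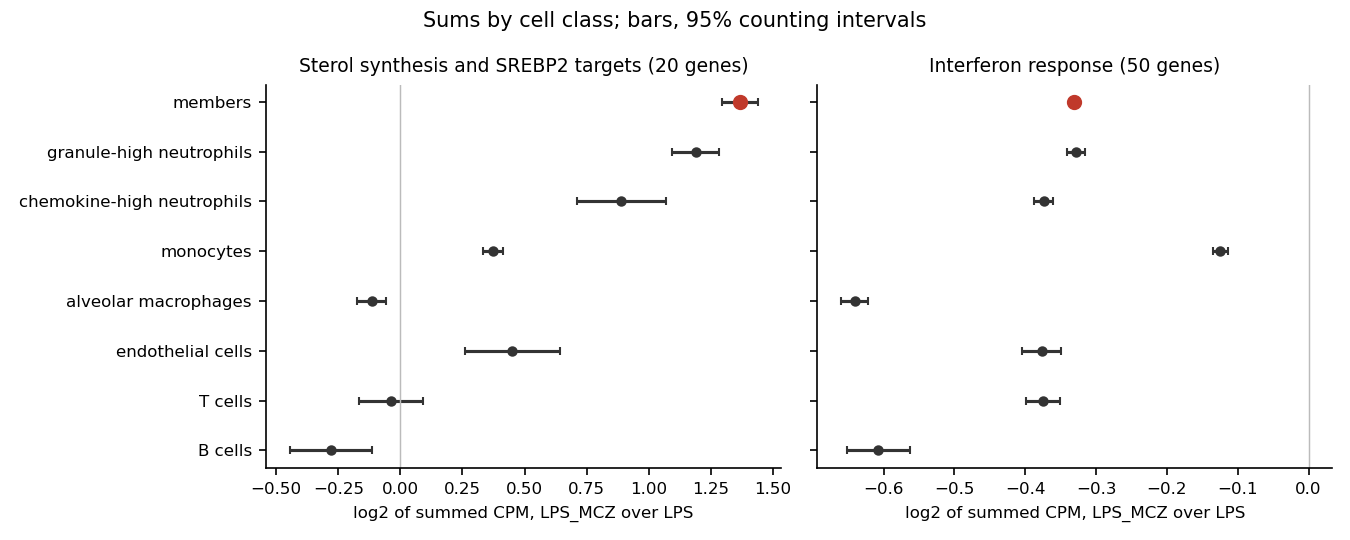
Log2 ratio, LPS_MCZ over LPS, of the summed CPM of 20 sterol synthesis and SREBP2-target genes (left) and of 50 interferon-response genes (right) in members (red) and 7 other cell classes, with 95% counting intervals. For the sterol genes members lie farthest right at 1.37, and for the interferon genes they lie at -0.33, between monocytes at -0.12 and alveolar macrophages at -0.64.

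The interferon-stimulated response element, found before many type I interferon targets, was searched as the letters GAAA, any 2 bases and GAAA again, on both strands, in the same windows. They occurred in 3.99% of 27025 genes. Of the 50 interferon genes 41 were in the promoter table and 24 of these (58.5%) held the letters. The 24 genes with them and the 17 without had median ratios of -0.36 and -0.38, so the medians lay close together. Ifit2 and Oasl1 did not hold them in this window. Stretches of 2 genes that were lower (Ifit1 and Ifit3) and 2 that were higher (Igtp and Gbp5) are shown because the same letters stand before genes of both directions. Matches are in capitals, read on the gene's strand, where TTTC, any 2 bases and TTTC is the motif on the opposite strand. They lie at chr19:34640745-34640853, chr19:34583333-34583456, chr11:58199482-58199571 and chr3:142496729-142496818, all on the plus strand.
Ifit1: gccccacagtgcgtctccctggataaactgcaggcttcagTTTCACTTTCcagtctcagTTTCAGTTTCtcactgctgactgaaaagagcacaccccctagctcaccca
Ifit3: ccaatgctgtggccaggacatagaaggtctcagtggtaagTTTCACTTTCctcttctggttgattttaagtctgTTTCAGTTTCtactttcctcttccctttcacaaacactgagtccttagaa
Igtp: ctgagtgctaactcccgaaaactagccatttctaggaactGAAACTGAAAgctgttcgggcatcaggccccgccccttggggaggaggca
Gbp5: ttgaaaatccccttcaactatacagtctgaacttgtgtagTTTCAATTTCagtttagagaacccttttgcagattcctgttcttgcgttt

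Among identity genes, Retnlg and Mmp8 were lower and Itgam and Cebpe higher. Of 18 tested identity and maturity genes 2 were higher and 2 lower (median -0.18), 11.1% each way against 17.3% higher and 6.54% lower of all genes. S100a8 was at 53309 CPM in LPS_MCZ and 67254 CPM in LPS, -0.34, and S100a9 at 92877 and 111468 CPM, -0.26, under the size for a call. Retnlg was lower at -0.71 [-0.73, -0.69], as was Mmp8, the neutrophil collagenase, at 534 CPM in LPS_MCZ and 809 CPM in LPS, -0.60 [-0.64, -0.56], though open to free RNA. Cxcr2 had a ratio of -0.30, Csf3r of 0.10, Ly6g, the murine neutrophil surface marker, of 0.24 and Mmp9, the gelatinase of tertiary granules, of 0.50. Cebpe, the factor of late granule development, was sparse, at 16.8 CPM in LPS_MCZ and 6.58 CPM in LPS, 1.23 [1.01, 1.71].

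Of 20 tested granule protein genes 2 were higher and 2 lower (median -0.03), against 17.3% higher and 6.54% lower of all genes, so the list as a whole stayed near the background. Wfdc17, a secreted protein with a whey acidic protein domain that is known for damping inflammation in mouse phagocytes, was at 4456 CPM in LPS_MCZ and 9736 CPM in LPS, -1.13 [-1.14, -1.11]. It was also lower in granule-high neutrophils (-0.71) and chemokine-high neutrophils (-1.19), and at 0.00 in monocytes. Chil3, a chitinase-like protein of myeloid cells, was at 639 CPM in LPS_MCZ and 248 CPM in LPS, 1.36 [1.31, 1.42]. It is also the main transcript among the alveolar macrophage markers, at 6460 and 4990.4 CPM in those cells, was open to free RNA in members, and had a ratio of 1.04 with free RNA subtracted. Padi4, which citrullinates histones during extracellular trap release, was at 50.3 CPM in LPS_MCZ and 20.2 CPM in LPS, 1.27 [1.12, 1.51]. Lcn2, the iron-trapping lipocalin and the most abundant gene of the list, had a ratio of 0.14.

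The stefin A cluster, a family of near-identical cysteine protease inhibitor genes of mouse myeloid cells, was lower, with 5 of 7 tested genes lower and 0 higher (median -0.59), against 6.54% lower and 17.3% higher of all genes. Stfa2 was at 388 CPM in LPS_MCZ and 835 CPM in LPS, -1.10 [-1.15, -1.06], Stfa3 at 135 and 289 CPM, -1.10 [-1.18, -1.03], and Cstdc5 at 1006 and 1961 CPM, -0.96 [-0.99, -0.93]. Stfa2l1 and Cstdc4 had ratios of -0.59 and -0.58. Reads may be split between the copies, so the values of single genes are uncertain. Cstb, the widely expressed cystatin outside the copies, had a ratio of 0.01. In granule-high neutrophils 6 of 7 were lower, as in chemokine-high neutrophils and in all cells outside the neutrophil gate summed together.

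Of 21 tested genes of chemoattractant receptors and adhesion 6 (28.6%) were higher and 0 lower (median 0.32), against 17.3% higher and 6.54% lower of all genes. The 6 were Ceacam1, Itgal, Itgam, Itgb2, Itgb1 and Icam1, while adhesion genes such as Selplg (0.36), Cd44 (0.24), Itga4 (0.32) and Cd47 (-0.13) were not called. Ceacam1, an adhesion molecule with inhibitory signalling, was at 169 CPM in LPS_MCZ and 50.8 CPM in LPS, 1.71 [1.61, 1.85]. The beta-2 integrin genes Itgal, Itgam and Itgb2, subunits of LFA-1 and Mac-1, had ratios of 0.94 [0.88, 1.01], 0.87 [0.83, 0.91] and 0.73 [0.69, 0.78], with Itgam at 974 CPM in LPS_MCZ and 534 CPM in LPS. Itgb1, open to free RNA, was at 0.59 and Icam1, a ligand of LFA-1, at 0.54, and these 2 fall under the size for a call once the shift of 0.15 is taken off. Of the receptors, Ccrl2, which presents chemerin, was at -0.45, the formyl peptide receptors Fpr2 and Fpr1 at -0.40 and -0.25, the complement receptor C5ar1 at 0.34 and the platelet-activating factor receptor Ptafr at -0.01.

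Of 25 tested cytokine and chemokine genes 2 were higher and 7 (28.0%) lower (median -0.11), against 17.3% higher and 6.54% lower of all genes. Tnf was at 748 CPM in LPS_MCZ and 409 CPM in LPS, 0.87 [0.83, 0.92], and Il10, the anti-inflammatory cytokine, at 35.8 and 22.1 CPM, 0.67 [0.49, 0.90]. Cxcl10, an interferon-induced T cell attractant, was at 297 CPM in LPS_MCZ and 546 CPM in LPS, -0.88 [-0.93, -0.82]. Ccl5 (-0.89) and Ccl6 (-0.83) were lower but open to free RNA, and Il12a, a subunit of interleukin 12, was at 18.2 CPM in LPS_MCZ and 33.1 CPM in LPS, -0.83 [-1.09, -0.64]. Cxcl3 sat at -0.50. The most abundant ones barely moved. Il1b was at 11841 CPM in LPS_MCZ and 11851 CPM in LPS, 0.00 [-0.01, 0.01], and Cxcl2 had a ratio of -0.05.

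Of 18 survival and death genes 4 (22.2%) were higher, near the 17.3% of all genes, and 4 were lower, against 6.54% of all genes (median 0.30, and -0.14 once cells were thinned to 2000 UMIs). Pmaip1, which encodes the death-promoting NOXA, was at 102 CPM in LPS_MCZ and 36.9 CPM in LPS, 1.45 [1.33, 1.61]. Bbc3, which encodes PUMA, another death-promoting protein, had a ratio of 0.79. The survival gene Bcl2a1a was at 104 CPM in LPS_MCZ and 247 CPM in LPS, -1.23 [-1.33, -1.15], and its near-identical copies Bcl2a1d and Bcl2a1b at -0.74 and -0.15, so the split of reads among the 3 is uncertain. Mcl1, on which neutrophil survival depends, was at 2347 CPM in LPS_MCZ and 2604 CPM in LPS, -0.15 [-0.17, -0.13].

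Of the S100 and calcium-binding genes 5 of 10 were higher and 0 lower (median 0.54), against 17.3% and 6.54% of all genes, but 4 of the 5, S100a4, S100a10 and S100a13 among them, were open to free RNA. S100a6 was at 7250 CPM in LPS_MCZ and 3821 CPM in LPS, 0.92 [0.91, 0.94], alongside the lower levels of S100a8 and S100a9. S100a4 had a ratio of 2.00 at 69.0 CPM in LPS_MCZ and 16.5 CPM in LPS. Its estimated free RNA came to as much as 207% of its level, and that of S100a10 to 274%. With free RNA subtracted both had a ratio of 0 because no level was left to compare. Of the fatty acid uptake and oxidation genes 4 of 17 (23.5%) were higher and 1 (5.88%) lower (median 0.06), near the 17.3% and 6.54% of all genes. The 4 higher genes were Acsl5, which activates fatty acids, at 264 CPM in LPS_MCZ and 128 CPM in LPS, 1.04 [0.96, 1.13], the mitochondrial dehydrogenase Acadl (1.59, open to free RNA), the carnitine transferase Cpt1a (0.61) and the triglyceride lipase Pnpla2 (0.60). Over the settings Cpt1a fell as low as 0.46 and Pnpla2 as low as 0.38, under the size for a call. Plin2, which coats lipid droplets, had a ratio of -0.03.

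Genes of LPS sensing and of the signal behind it had few calls beyond the 17.3% higher and 6.54% lower of all genes. Of 17 tested LPS sensing genes 0 were higher and 1 was lower, Clec4d, a C-type lectin receptor, at -0.71 [-0.74, -0.68] (list median 0.00). Cd14, the LPS co-receptor, was at 6950.3 CPM in LPS_MCZ and 6942 CPM in LPS, and the adaptor Myd88 had a ratio of 0.24. Of 22 NF-kB genes 4 (18.2%) were higher and 1 (4.55%) lower (median 0.15), as over all genes, with Traf1 at 0.66 and the inhibitor Nfkbia at 0.29. The lower gene, Cd83 (-1.10), and the higher genes Tnip3 (0.82) and Ripk2 (0.64) were open to free RNA. Of 10 inflammasome genes 3 were higher and 0 lower (median 0.24), with Txnip at 0.53, Nlrp3 at -0.22, and the adaptor Pycard at 1.24 but open to free RNA. Of 7 subunits of the NADPH oxidase, the source of the oxidative burst, 0 were called, all above 0 with a median of 0.19 and Ncf1 highest at 0.48. Of 6 eicosanoid synthesis genes 0 were called (median 0.10), with Ptgs2, the inducible cyclooxygenase, at -0.07.

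Of 23 glycolysis and hypoxia genes 2 (8.70%) were higher and 2 lower (median 0.23), against 17.3% and 6.54% of all genes, with Hk1 at 0.90 and Hk2 at -0.59, both hexokinases. The 2 lower genes, Hk2 and Pfkl (-1.17), were open to free RNA, as was Bnip3l (0.52), the other higher gene. Of 22 early response genes 2 were higher and 4 (18.2%) lower (median -0.17), with Klf2, a quiescence factor, at 2031 CPM in LPS_MCZ and 1276 CPM in LPS, 0.67 [0.64, 0.70], and Junb at 0.01. Hspa1a and Hspa1b, the stress-induced heat shock genes on that list, were at -1.51 and -1.18 but at under 30 CPM and open to free RNA. They were also the 2 lower of 10 tested heat shock genes, 0 of which were higher (median -0.03). All 10 were open to free RNA, and the list median lay between -0.71 and 0.03 over the settings.

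Over all genes with a mean of at least 50 CPM and not open to free RNA, the 10 highest ratios were led by Myo18a, an unconventional myosin, at 131 CPM in LPS_MCZ and 31.0 CPM in LPS, 2.05 [1.93, 2.23]. Ceacam1 came next, then Emp3 (1.64), Fkbp5, a glucocorticoid-induced co-chaperone (1.58 [1.502, 1.68]), Spn, which encodes the surface sialoprotein CD43 (1.51), Pmaip1, Mbp (1.40), Rgs3 (1.38), Plxnc1 (1.37) and Rasgrp2 (1.36). Fkbp5 was at 271 CPM in LPS_MCZ and 89.97 CPM in LPS, and was higher also in the granule-high (0.81) and chemokine-high neutrophils (1.78) and in monocytes (0.86).

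The lowest was BC018473, with 64 UMIs in LPS_MCZ members and 23595 UMIs in LPS members, 4.68 against 1568 CPM. It was scarce in all 8 other LPS_MCZ classes counted, at 0 to 6.17 CPM against 50.2 to 2463 CPM in LPS, and stood at 2.78 CPM over all cells outside the neutrophil gate against 649 CPM in LPS. Tspan13, a tetraspanin, was at 46.4 CPM in LPS_MCZ and 174 CPM in LPS, -1.89 [-2.04, -1.78], and at -1.04 and -1.60 in granule-high and chemokine-high neutrophils. Trim30c (-1.47), Schip1 (-1.42), Rhoh (-1.32), Pde7b (-1.28), Ifit2, Bcl2a1a, Dach1 (-1.23) and Wfdc17 followed.

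Members varied along the share of granule transcripts, which the rule had used, so the order below is a description. They were cut into 5 bins, bin 1 with 0 UMIs of Camp, Ltf and Ngp (701 LPS_MCZ and 953 LPS members) and bins 2 to 5 from low to high (369 to 413 members of each library per bin). Retnlg, Mmp8 and Wfdc17 were higher in bin 5 than in bin 1 in both libraries. Ifit1, Rsad2 and Isg15 were lower, while Ifit2 lay between 55.6 and 64.5 CPM in all 5 bins of LPS_MCZ. In LPS Ifit2 was at 189 CPM in bin 1 and 82.5 CPM in bin 5, and its ratio was -1.57 in bin 1 and -0.56 in bin 5. The interferon-response median was -0.46 in bin 1 and -0.26 in bin 5, against 0.12 and 0.20 for all genes. Retnlg was at 1540.0 CPM in bin 1 and 6826 CPM in bin 5 of LPS_MCZ, and at 3561 and 8640 CPM in LPS. Its ratio was -1.21 in bin 1 and -0.34 in bin 5, and that of Mmp8 -1.18 and -0.20, so the libraries lay closest in the bin with the most granule RNA. Ifit1 was at 530.1 CPM in bin 1 and 308 CPM in bin 5 of LPS_MCZ and at 1072 and 556 CPM in LPS, with ratios between -1.02 and -0.83 in all 5 bins.

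Srebf2 was highest in bin 5 in both libraries. It stood at 52.3 CPM in bin 1 and 106 CPM in bin 5 of LPS_MCZ and at 16.2 and 37.9 CPM in LPS, with ratios between 1.46 and 1.89. Ceacam1 ran the other way, at 189 CPM in bin 1 and 108 CPM in bin 5 of LPS_MCZ and at 60.9 and 44.3 CPM in LPS. Median depth was also higher toward bin 5, at 4823 UMIs in bin 1 and 6936 UMIs in bin 5 of LPS_MCZ and 4660.0 and 6404 UMIs in LPS, and its part in these orders was not tested.

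**Figure D5:**
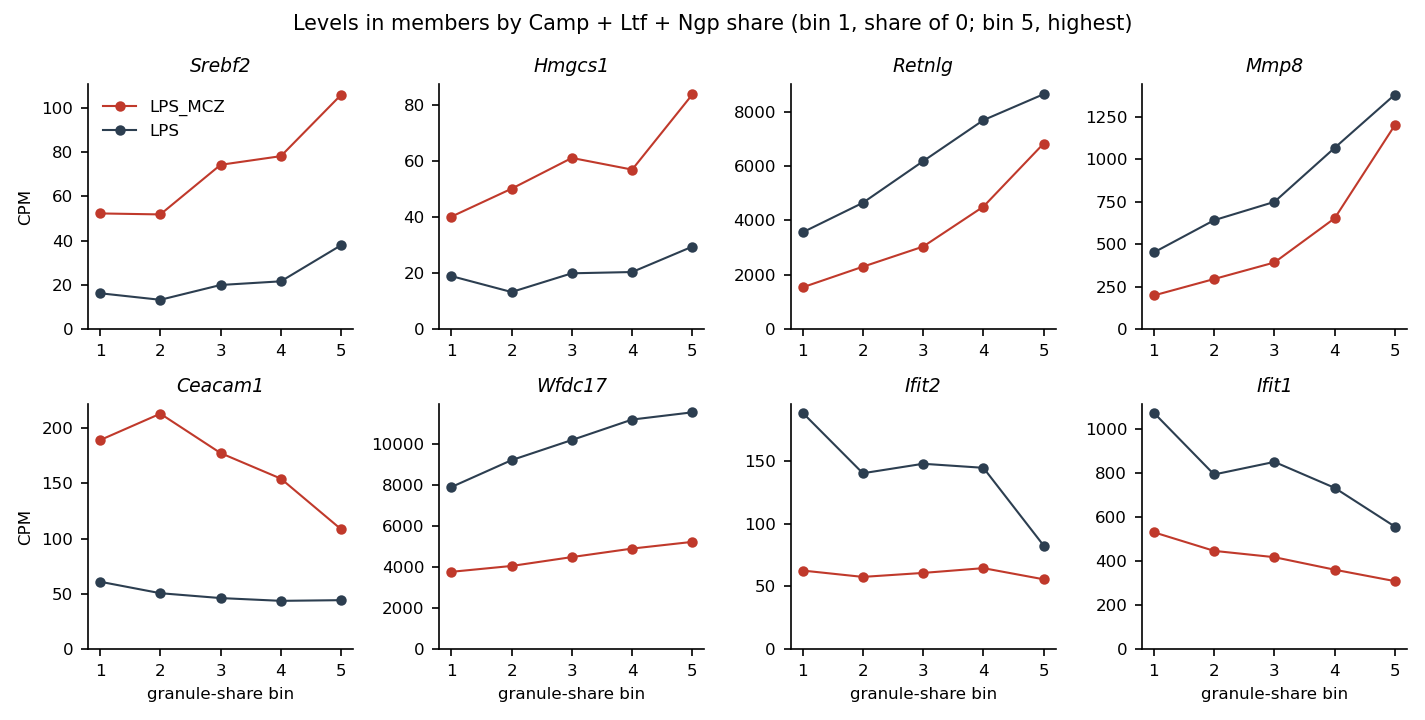
CPM of 8 genes in members by bin of the Camp, Ltf and Ngp share (bin 1, share of 0; bin 5, highest), LPS_MCZ in red and LPS in dark blue, each point 1 library's cells of 1 bin. Srebf2, Hmgcs1 and Ceacam1 lie higher in LPS_MCZ in every bin, Retnlg, Mmp8, Wfdc17, Ifit2 and Ifit1 lie lower, and the Retnlg and Mmp8 curves come closest in bin 5.

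Set against the granule-high neutrophils, members had 219 genes (3.66% of 5981) higher and 110 genes (1.84%) lower by a log2 ratio of at least 1 in both libraries. The cells were divided by granule transcripts, so these are a description of the division. Cd177, a neutrophil surface antigen, was at 77.2 CPM in members and 411 CPM in granule-high cells of LPS_MCZ and at 98.1 and 438 CPM in LPS, and Chil3 and Abca13 were lower in members too. Cxcl1 was at 251 CPM in members and 57.4 CPM in granule-high cells of LPS_MCZ and at 193 and 45.6 CPM in LPS, and the stress gene Ppp1r15a and the interferon gene Gbp5 were higher in members. The list medians of members over granule-high cells were 0.47 in LPS_MCZ and 0.42 in LPS for interferon response, and -0.46 and -0.58 for the sterol genes, so members held less sterol RNA than granule-high cells in both libraries. Haemoglobin RNA went with the division, with Hbb-bs at 2087 CPM in members and 401 CPM in granule-high cells of LPS_MCZ and at 3078 and 600.1 CPM in LPS, and its part was not tested.

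Against the chemokine-high neutrophils the members were closer, with 13 genes (0.225% of 5769) higher and 15 genes (0.26%) lower by at least 1 in both libraries. Genes lower in members included Ptgs2, at 239 CPM in members and 614 CPM in chemokine-high cells of LPS_MCZ and at 252 and 511 CPM in LPS, the stress factor Atf3 (-1.28 in LPS_MCZ and -1.12 in LPS) and Zc3h12c (-1.26 and -1.06). Cxcl2 was at 14049 CPM in members and 27252 CPM in chemokine-high cells of LPS_MCZ and at 14577 and 26033 CPM in LPS. The lists of cytokines (medians -0.55 in LPS_MCZ and -0.48 in LPS) and early response genes (-0.46 and -0.36) were lower in members, and interferon response was level (0.05 and 0.02).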

How the data were processed

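Per the labels' protocols, lung lobes were profiled with 10x Genomics 3' version 3 chemistry. The deposited matrices hold raw UMI counts per gene and barcode, made with Cell Ranger 7.0.0 per the file headers. The submitters' processing notes also list bcl2fastq 2.20 and mm10, and how intronic reads were treated is not given in the sources used here.

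Kept cells had 200 or more genes, 500 or more UMIs and no more than 20% of UMIs from mitochondrial genes, and no doublet caller was run beyond the marker limits of the gate. The members and the 19 gene lists were chosen with earlier results of these data known, and no pattern shown here is independent of them. UMIs were summed over the members of a library and scaled to CPM with numpy 2.4.6. Named genes were, per list, up to 4 tested genes with the largest absolute ratio and the most abundant one, the 10 highest and 10 lowest of all genes, and the marker and rule genes. Other genes named were chosen after their values were seen. The sum-based estimate of free RNA fixed at the outset gave 57.9% in LPS_MCZ and 67.7% in LPS, with 96.9% and 97.6% of it from haemoglobin and Scgb1a1, and was replaced by the median over genes after the data were seen. Bins of equal size were planned, but members with a granule share of 0 were more than 1 bin of 5 could hold and form bin 1. The calculation was tested on simulated data. Intervals (scipy 1.17.1, 95%) cover counting error only. A few genes of the lists are counted in the list values but not reported singly here.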

Additional observations from a re-analysis of the deposited data

Results flagged for a closer look

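Lists of members were set beside the same lists in the other gated cell classes, each list median taken less the median of all genes in its class. In 3 pairs these values lay on opposite sides of 0, both beyond a set margin. Pairs of opposite sign short of that margin are not listed, such as sterol synthesis and sensing, with medians of 0.61 in members and -0.10 in T cells. None of these differences was tested, since each group has 1 library. The median log2 ratio, LPS_MCZ over LPS, of cytokine and chemokine genes was -0.11 in members and 0.26 in T cells (17 genes tested there). That of identity and maturity genes was -0.18 in members and 0.66 in endothelial cells (6 genes). These are neutrophil genes, and S100a9 was at 2778 CPM in LPS_MCZ and 1726 CPM in LPS endothelial cells, against 92877 and 111468 CPM in members. The part of free RNA in the endothelial value was not tested. That of early response genes was -0.17 in members and 0.50 in alveolar macrophages (22 genes).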

How the results depend on the processing

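No paired analysis was possible because each group has 1 library, and no library could be left out. Of 119 named genes 70 passed a log2 size of 0.5, and of these 70, 55 did so in every one of 18 settings that gave them a value and 0 turned direction. Smaller ratios did turn, such as those of Csf3r (0.10, lowest -0.05) and Ngp (0.10, lowest -0.69). The sterol sum stayed between 1.17 and 1.49. The share of members in LPS_MCZ and LPS was 24.4% and 22.8% with limits set within each library, 28.4% and 23.0% with at least 1 Csf3r UMI, 16.7% and 15.8% with at least 10% S100 UMIs, 28.4% and 22.7% with at least 500 genes and at most 5% mitochondrial UMIs, 23.9% and 19.2% without the deepest 10%, and 35.6% and 28.4% with up to 10 UMIs of Ly6c2, F13a1 and Mrc1 (chosen after seeing the data, as was leaving out shared barcodes and the 2 Scgb1a1-rich members). Genes higher numbered 594 thinned, 560 by median of ratios, 552 with a pseudocount of 10 CPM, 1498 with at least 50 UMIs per gene and 2080 with at least 1. Genes lower numbered 578 by median of ratios, 206 with a pseudocount of 10 CPM, 608 with at least 50 UMIs, 887 with at least 1 and 970 with free RNA subtracted. The interferon median was -0.53 by median of ratios. The interferon UMIs of the median member, LPS_MCZ and LPS, were 53 and 67 with at least 10% S100 UMIs and 28 and 36 thinned to 1000 UMIs, and 75 in LPS without the deepest 10%. The survival list turned to -0.14 when thinned, where fewer of its genes pass the filter. Counting each main result in each setting that gave it a value, 28 values moved beyond their margins and 74 stayed within them. Of the limits, 1 library a group means that variation between mice is unknown, both groups differ in treatment and in library alike, and genes near 200 UMIs have wide counting intervals.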

Other observations

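Gm42418, which overlaps ribosomal RNA, was at 7798 CPM in LPS_MCZ members and 3660 CPM in LPS members, a log2 ratio of 1.09. It was higher in LPS_MCZ in every class counted, from 0.92 in monocytes to 1.58 in alveolar macrophages. In members Cmss1 (0.76), Cdk8 (0.85) and Camk1d (1.29) were higher as well. Cmss1 too was higher in every class counted, from 0.65 in granule-high neutrophils to 1.55 in alveolar macrophages. The 81 tested cytosolic ribosomal protein genes had a median of -0.21, with 1 higher and 1 lower, and took 1.04% of UMIs in LPS_MCZ members and 1.24% in LPS members.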
